A study of Homo sapiens with 20 samples.

Results

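The comparison asked whether EBV+ gastric cancer cells answered DNA demethylation differently from EBV- cells of the same methylator class. It used 12 of the 20 libraries of the study, those of the CIMP+ lines YCCEL1, SNU719 and AGS, and was formed for each of 27350 genes as the mean response of YCCEL1 and SNU719 minus the response of AGS. A response is the mean log2(value + 1) of the decitabine (DCB) libraries of a line minus that of its DMSO libraries. CIMP, the CpG island methylator phenotype, is dense methylation of CpG-rich promoters. YCCEL1 and SNU719 are EBV+ gastric cancer lines, 8 libraries in all, and AGS is an EBV- gastric cancer line, 4 libraries. In each line 2 libraries came from cells given DCB for 72 h and 2 from cells given the solvent DMSO. With 2 EBV+ lines and 1 EBV- line, EBV status and the identity of the lines cannot be told apart. Nothing in the labels or methods says that libraries of 1 group are separate cultures, and the p-values cover only the spread among these libraries, which may be technical.

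In EBV-associated gastric cancer the viral genome persists in the tumour cell with few viral genes expressed, and the host genome carries methylation at very many promoters. Decitabine is a deoxycytidine analogue that is phosphorylated in the cell, built into replicating DNA and bound covalently by DNA methyltransferases, which are then degraded. New DNA strands stay unmethylated, silenced promoters can reopen, and the trapped enzymes also leave DNA damage.

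Values are normalized estimated counts as deposited, with totals of 7937073 to 9321014 per library and an estimated depth of 7243424 to 10730970 read equivalents. The 12 markers of gastric epithelial lines were above 0 in every library. Of 26 markers of other cell types, lysozyme (LYZ) was high in every line. The sum of the other 25 was 539.6 and 550.5 in YCCEL1, 1095 and 1135 in SNU719 and 2400.3 and 2471 in AGS with DCB, against 116.7 and 199.6, 263.2 and 282.8, and 442.6 and 450.4 with DMSO. The sums were higher with DCB in all 3 lines, and their part in the results was not tested. The T-cell markers CD3D, CD3E and CD8A were listed at 0 in all 6 DMSO libraries. With DCB, CD3D and CD3E were above 0 in at least 1 library of each line, and CD8A in both AGS libraries and in no EBV+ library. EBV genes were not analysed here, so the EBV label was not checked.

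The response was called larger in the EBV+ lines for 605 genes (2.21% of those tested) and smaller for 782 (2.86%), at an adjusted p below 0.05 (limma, Benjamini-Hochberg over all genes tested) and a log2 difference beyond 2. Called against AGS in both EBV+ lines separately were 229 and 397. Among genes with no group at 0, a limit chosen after seeing the data, 292 were larger and 262 smaller, so the excess of smaller responses turned there. At the adjusted p alone the numbers were 2135 (7.81%) and 2502 (9.15%). Set against the same AGS libraries, YCCEL1 by itself had 788 larger (2.88%) and 690 smaller responses (2.52%), and SNU719 had 561 (2.05%) and 853 (3.12%). The YCCEL1 response was called larger than that of SNU719 in 564 genes (2.06%) and smaller in 313 (1.14%). The median difference over all genes was -0.01. In 572 of the 605 genes every DCB library of the EBV+ lines, set against the DMSO mean of its line, lay above both AGS libraries, which held for 18.8% of all genes tested. In 768 of the 782 it lay below both, which held for 21.1% of all genes. The calls were made on the same responses, so this separation is partly built in.

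The called genes were then divided by the responses that make up the difference, as a description. They were selected on that difference, which contains these same responses and DMSO values. The patterns are thus partly built in, and shares over all genes are given for scale only. Of the 782 with a smaller response, 760 passed the adjusted p as a rise in AGS (18.2% of all genes rose in AGS), and in 416 of these neither EBV+ line passed in either direction. The value in AGS DMSO was low in most of them: only 56 of the 782 averaged 10 or more there, against 49.0% of all genes tested. Both EBV+ lines averaged 10 or more in DMSO in 173 of the 782 (22.1%, against 45.3% of all genes tested). In 130 (16.6%, against 2.37% of all genes) they did so while AGS averaged below 10. In most, 473 (60.5%), AGS and both EBV+ lines all averaged below 10 in DMSO. In 384 of the 782 all 4 EBV+ DCB values were below 10 as well. The genes with a larger response were of several kinds. In 312 of the 605 both EBV+ lines rose (14.2% of all genes rose in YCCEL1 and 13.5% in SNU719), in 208 AGS fell (9.25% of all genes fell in AGS), and 39 did both. For scale, the falls passing the adjusted p made up 7.39% of all genes in YCCEL1 and 7.66% in SNU719. With the log2 limit added, 7.26% of all genes rose and 0.157% fell in YCCEL1, 5.84% and 0.216% in SNU719, and 8.44% and 0.574% in AGS. AGS DMSO averaged 10 or more in 365 of the 605 (60.3%, against 49.0% of all genes tested). Both EBV+ lines were below 10 in DMSO in 145 of these (24% of the 605, against 2.57% of all genes). In 222 of the 605 (36.7%) AGS and both EBV+ lines all averaged below 10 in DMSO.

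**Figure D1:**
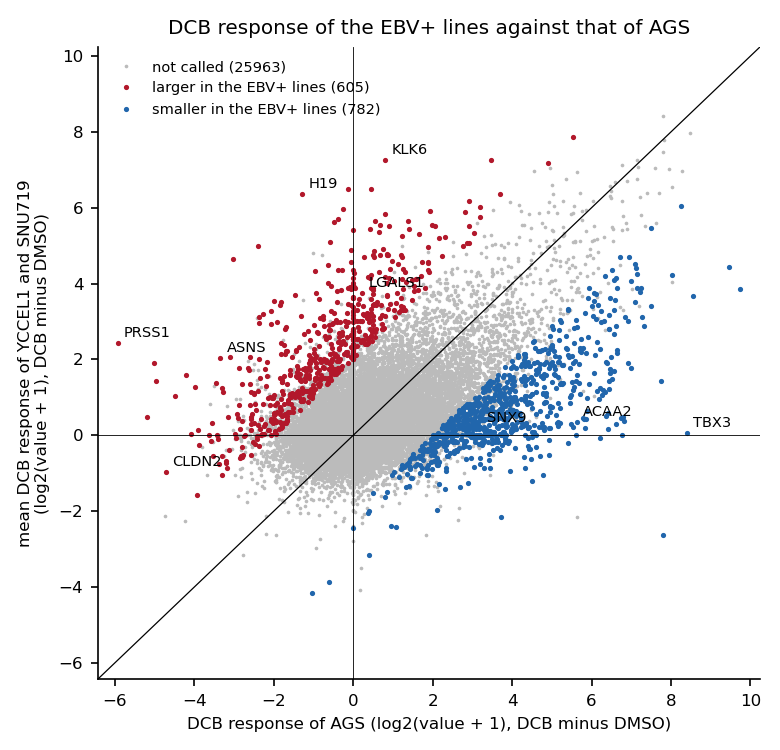
Mean DCB response of YCCEL1 and SNU719 (vertical axis) against the DCB response of AGS (horizontal axis), both as DCB minus DMSO on log2(value + 1), with 1 point per gene and the line of equal responses. The 605 genes with a larger response in the EBV+ lines (red) lie above the line, with many to the left of 0 on the AGS axis, and the 782 with a smaller response (blue) lie below it, nearly all to the right of 0.

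Among genes above 0 in all 12 libraries, the 8 with the smallest adjusted p and a larger response in the EBV+ lines were the digestive proteases PRSS2 and PRSS1, the mTORC1 inhibitor DDIT4, the cysteine protease inhibitor CST1, the galectin LGALS1, the mucosal protease inhibitor SLPI, the tight junction protein CLDN2 and the actin-binding protein SYNPO. PRSS2, a trypsinogen, had values of 519.0 and 519.6 with DCB against 68.7 and 62.8 with DMSO in YCCEL1, 354.7 and 371.7 against 3.19 and 3.86 in SNU719, and 78.1 and 86.0 against 663.5 and 693.2 in AGS. The difference in response was 7.68 (SE 0.13, adjusted p = 3.24e-07), with rises in both EBV+ lines and a fall in AGS. PRSS1, its close paralogue, showed the same directions, with 1097 and 1045 with DCB against 471.7 and 520.0 with DMSO in YCCEL1, 57.1 and 57.9 against 3.23 and 3.51 in SNU719, and 3.55 and 2.12 against 206.9 and 253.0 in AGS and a difference of 8.36 (SE 0.24, adjusted p = 2.52e-06). Reads of these near-identical genes may be split between them, so the size of each is uncertain. In the coordinates of the table (GRCh38) PRSS2 spans chr7:142760398-142774564 and PRSS1 chr7:142749468-142753076.

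SLPI and SYNPO also moved in opposite directions. SLPI had 466.9 and 485.8 with DCB against 216.9 and 199.5 with DMSO in YCCEL1, 320.8 and 328.0 against 114.4 and 133.7 in SNU719, and 107.7 and 100.1 against 464.6 and 490.2 in AGS, a difference of 3.48 (SE 0.11, adjusted p = 3.89e-06). SYNPO had 121.7 and 105.7 with DCB against 5.82 and 5.85 with DMSO in YCCEL1, 102.6 and 78.4 against 9.49 and 10.9 in SNU719, and 486.8 and 541.2 against 2004 and 2102 in AGS, a difference of 5.54 (SE 0.19, adjusted p = 4.23e-06). In both genes AGS had the highest DMSO values of the 3 lines. DDIT4 had 1374 and 1488 with DCB against 657.5 and 670.3 with DMSO in YCCEL1, 553.2 and 562.3 against 556.8 and 556.8 in SNU719, and 219.2 and 227.2 against 1774 and 1632 in AGS, a difference of 3.48 (SE 0.071, adjusted p = 5.91e-07), so it rose in YCCEL1, did not pass the test in SNU719 and fell in AGS. CLDN2 fell in AGS and SNU719 and was near its DMSO level in YCCEL1, with 2246 and 2319.9 with DCB against 2680.4 and 2676 with DMSO in YCCEL1, 814.5 and 817.4 against 2673 and 2669 in SNU719, and 121.1 and 93.4 against 2826 and 2777 in AGS, a difference of 3.74 (SE 0.12, adjusted p = 3.94e-06). Its larger value in the EBV+ lines was thus a smaller fall.

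LGALS1 and CST1 rose in the EBV+ lines toward levels that AGS already had. LGALS1 had 88.5 and 81.3 with DCB against 6.22 and 5.25 with DMSO in YCCEL1, 902.0 and 958.0 against 65.6 and 64.2 in SNU719, and 1935 and 2080.0 against 1701 and 1743 in AGS, a difference of 3.53 (SE 0.11, adjusted p = 3.35e-06). CST1 had 1263 and 1293 with DCB against 486.0 and 514.2 with DMSO in YCCEL1, 369.1 and 349.7 against 10.5 and 10.9 in SNU719, and 13466 and 12747 against 9595 and 10007 in AGS, a difference of 2.73 (SE 0.065, adjusted p = 9.06e-07). AGS was highest in both treatments in both genes, and the AGS response of LGALS1 did not pass the test (log2 response 0.22, adjusted p = 0.121).

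The 8 genes with the smallest adjusted p and a smaller response in the EBV+ lines, by the same rule, were the kinase LRRK1, the endocytic sorting nexin SNX9, the mucin MUC13, the mitochondrial thiolase ACAA2, the Polycomb partner PHF19, the zinc finger gene ZNF419, the antisense RNA PAX8-AS1 and the small GTPase RAB15. ACAA2, which completes fatty acid beta-oxidation cycles, had 1334 and 1331 with DCB against 1086 and 1077 with DMSO in YCCEL1, 525.6 and 569.6 against 444.9 and 397.1 in SNU719, and 280.2 and 323.1 against 4.30 and 5.99 in AGS, a difference of -5.29 (SE 0.17, adjusted p = 3.35e-06). SNX9 had 650.8 and 599.6 with DCB against 752.7 and 740.2 with DMSO in YCCEL1, 753.4 and 779.4 against 481.6 and 503.0 in SNU719, and 81.7 and 82.2 against 7.74 and 8.30 in AGS, a difference of -3.01 (SE 0.087, adjusted p = 2.52e-06). In both genes AGS rose with DCB and still lay below every EBV+ library. ACAA2 spans chr18:49782164-49813953 and SNX9 chr6:157700387-157945077.

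PHF19 had 200.3 and 185.4 with DCB against 272.5 and 271.0 with DMSO in YCCEL1, 309.4 and 316.3 against 449.5 and 606.0 in SNU719, and 118.5 and 136.2 against 5.39 and 4.13 in AGS, a difference of -5.10 (SE 0.20, adjusted p = 9.07e-06). ZNF419 had 266.0 and 224.6 with DCB against 312.7 and 338.1 with DMSO in YCCEL1, 179.8 and 188.3 against 154.8 and 155.9 in SNU719, and 99.4 and 132.8 against 4.80 and 4.24 in AGS, a difference of -4.48 (SE 0.19, adjusted p = 1.41e-05). RAB15 had 722.7 and 706.7 with DCB against 908.8 and 975.9 with DMSO in YCCEL1, 1044 and 1010.3 against 1142 and 1046 in SNU719, and 38.8 and 40.8 against 8.35 and 9.43 in AGS, a difference of -2.29 (SE 0.10, adjusted p = 1.51e-05). PAX8-AS1 differed by -3.69 (SE 0.16, adjusted p = 1.44e-05) and moved in AGS alone at the adjusted p (87.2 and 100.2 with DCB, 5.05 and 6.82 with DMSO), and its reads may include those of PAX8 on the other strand, since the sources differ on whether the libraries keep strand. In these genes, as in ACAA2 and SNX9, AGS was below 10 in DMSO while both EBV+ lines expressed the gene.

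LRRK1 and MUC13 differed from them in being well expressed in untreated AGS. LRRK1 had 481.1 and 471.0 with DCB against 596.2 and 592.0 with DMSO in YCCEL1, 1216 and 1214 against 769.2 and 735.7 in SNU719, and 11256 and 11589 against 2399 and 2442 in AGS, a difference of -2.05 (SE 0.045, adjusted p = 6.49e-07). MUC13, a membrane mucin of the gut, had 794.5 and 806.0 with DCB against 1158 and 1249 with DMSO in YCCEL1, 2086 and 1926 against 2771 and 2729 in SNU719, and 1144 and 1199 against 311.6 and 287.3 in AGS, a difference of -2.49 (SE 0.076, adjusted p = 2.92e-06). MUC13 fell in both EBV+ lines and rose in AGS.

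**Figure D2:**
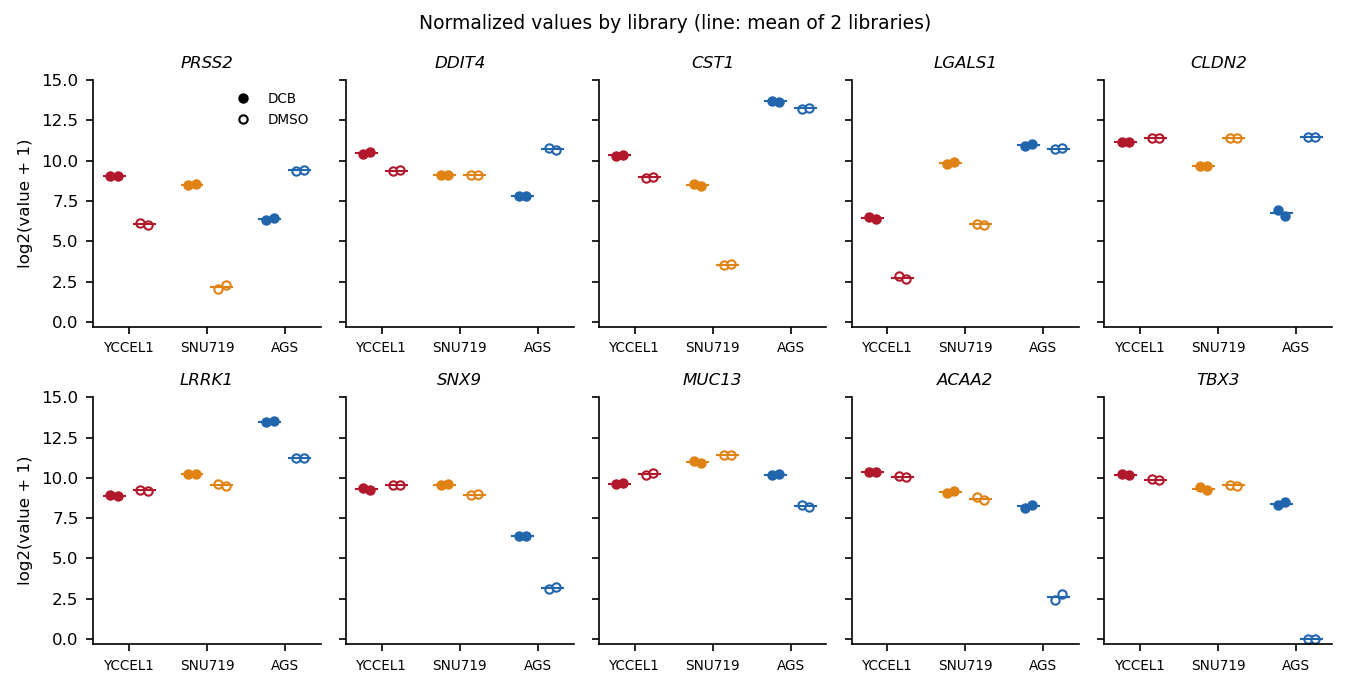
log2(value + 1) of 10 genes in each library of YCCEL1, SNU719 and AGS, with filled circles for DCB, open circles for DMSO and a bar at the mean of the 2 libraries. The upper row shows genes with a larger response in the EBV+ lines, where AGS started high in DMSO, and the lower row genes with a smaller response, where AGS rose with DCB.

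Some genes were listed at 0 in every library of 1 side, and are given by level with no fold. In all 4 AGS libraries 61 of the 605 genes were listed at 0. The highest in DCB-treated EBV+ cells were ITIH2, FAM3D, BRINP2, MGAM, RN7SKP54 and DUX4L4. MGAM, the maltase-glucoamylase of the intestinal brush border, had 33.5 and 44.5 with DCB against 1.78 and 2.98 with DMSO in YCCEL1 and 28.9 and 16.5 against 2.14 and 0.970 in SNU719 (adjusted p = 0.00295). BRINP2, a gene of neural cells, had 4.95 and 3.71 against 0 and 0 in YCCEL1 and 70.8 and 45.2 against 0 and 0.539 in SNU719 (adjusted p = 0.000483). DUX4L4, 1 of many near-identical DUX4 copies, was seen in DCB-treated YCCEL1 alone (43.0 and 38.1). The calls of ITIH2 (adjusted p = 0.0300) and FAM3D (adjusted p = 0.0294) were lost in 9 and 8 of the 12 fits that left out 1 library, with adjusted p up to 0.0904 and 0.0832.

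In all 8 EBV+ libraries 44 of the 782 genes were listed at 0, and AGS alone expressed them. NPPB, the B-type natriuretic peptide, had 222.0 and 217.6 with DCB against 31.2 and 24.6 with DMSO in AGS (adjusted p = 0.000703). KRT34, a hair keratin, had 38.7 and 58.7 against 0 in both DMSO libraries (adjusted p = 2.29e-05), and the neurotrophin BDNF had 19.1 and 19.1 against 0 (adjusted p = 9.07e-06). SPANXC, a cancer-testis gene of the X chromosome, had 95.9 and 120.3 against 0, the salivary proline-rich protein gene PRB2 had 27.8 and 19.3 against 0, and the placental glycoprotein gene PSG3 had 24.0 and 26.6 against 2.62 and 0.940. These tissue-restricted genes became detectable, or rose, with DCB in AGS and in neither EBV+ line.

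Promoters of 4 genes are shown because the drug acts on methylated CpG dinucleotides, 2 from genes with a smaller response in the EBV+ lines (SNX9 and MAGEA6) and 2 from genes with a larger one (KLK6 and CEACAM5). Each is the 250 bases before the start site that RefSeq lists for the gene (GRCh38.p14), 5′ to 3′ on the strand of the gene, with each CG in capitals. SNX9 lies at chr6:157822996-157823245 (plus strand), MAGEA6 at chrX:152769690-152769939 (minus), KLK6 at chr19:50969592-50969841 (minus) and CEACAM5 at chr19:41708376-41708625 (plus). The window holds 47 CG in SNX9, 15 in MAGEA6, 12 in KLK6 and 2 in CEACAM5. A summary over genes would be void, since a window was at hand for 52.6% of the genes with a larger response, 63.9% of those with a smaller one and 55.1% of all genes tested, so the 4 do not stand for their groups. The start that RefSeq gives for SNX9 lies inside the longer gene of the table, which begins at 157700387. RNA values do not show whether these bases were methylated.
SNX9: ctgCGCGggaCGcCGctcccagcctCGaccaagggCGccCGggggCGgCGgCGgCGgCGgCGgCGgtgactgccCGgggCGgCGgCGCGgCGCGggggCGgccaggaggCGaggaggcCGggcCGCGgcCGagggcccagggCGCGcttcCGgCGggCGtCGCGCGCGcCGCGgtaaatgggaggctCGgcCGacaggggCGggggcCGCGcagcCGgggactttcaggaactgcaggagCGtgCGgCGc
MAGEA6: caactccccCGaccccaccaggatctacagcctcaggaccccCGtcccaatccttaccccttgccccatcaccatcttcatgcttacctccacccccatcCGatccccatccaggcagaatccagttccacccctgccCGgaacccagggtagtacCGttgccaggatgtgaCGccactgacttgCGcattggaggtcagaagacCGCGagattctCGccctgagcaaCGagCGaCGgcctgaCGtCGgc
KLK6: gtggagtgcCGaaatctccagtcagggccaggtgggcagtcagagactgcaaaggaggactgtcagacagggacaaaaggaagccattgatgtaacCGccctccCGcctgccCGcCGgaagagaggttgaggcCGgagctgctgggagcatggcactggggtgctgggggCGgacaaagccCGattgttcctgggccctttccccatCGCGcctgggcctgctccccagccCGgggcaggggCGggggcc
CEACAM5: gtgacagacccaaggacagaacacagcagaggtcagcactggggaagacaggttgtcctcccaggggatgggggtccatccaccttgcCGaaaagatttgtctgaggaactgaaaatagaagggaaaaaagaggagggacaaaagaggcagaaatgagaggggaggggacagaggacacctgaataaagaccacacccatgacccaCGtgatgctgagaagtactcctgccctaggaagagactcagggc

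A list of genes of the integrated stress response (ATF4, the transcription factor of amino acid shortage and endoplasmic reticulum stress, with its targets) was drawn up after the values of several members were seen. Its counts only describe the genes chosen. Of 34 genes, 24 had a larger response in the EBV+ lines and 1, ATF3, a smaller one (70.6% and 2.94% of those tested, against 7.81% and 9.15% of all genes), with a median difference of 1.07. The median response was -0.14 in YCCEL1, 0.10 in SNU719 and -1.02 in AGS, against 0.09, 0.11 and 0.12 over all genes. Falls passed the test for 13 of the genes in YCCEL1, 9 in SNU719 and 23 in AGS, against 7.39%, 7.66% and 9.25% of all genes. ASNS, asparagine synthetase, had 1429 and 1397 with DCB against 397.7 and 510.4 with DMSO in YCCEL1, 28.2 and 48.9 against 6.66 and 5.48 in SNU719, and 302.0 and 344.0 against 3256 and 3330.1 in AGS, a difference of 5.39 (SE 0.29, adjusted p = 3.65e-05). The cystine transporter gene SLC7A11 had 853.0 and 833.2 with DCB against 1392 and 1272 with DMSO in YCCEL1, 594.8 and 687.4 against 583.2 and 560.7 in SNU719, and 51.0 and 78.2 against 942.8 and 943.4 in AGS, a difference of 3.63 (SE 0.21, adjusted p = 5.48e-05). ASNS rose in both EBV+ lines and fell in AGS, and SLC7A11 fell in YCCEL1 and AGS.

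The serine synthesis enzyme PSAT1 differed by 1.53 (SE 0.047, adjusted p = 2.92e-06), the glycyl-tRNA synthetase GARS1 by 1.17 (SE 0.039, adjusted p = 3.94e-06) and the glutathione-degrading enzyme CHAC1 by 1.89 (SE 0.077, adjusted p = 1.03e-05). PSAT1 and GARS1 fell in all 3 lines, most in AGS, and CHAC1 rose in both EBV+ lines and fell in AGS. The ATF4 response itself was -0.18 in YCCEL1, -0.39 in SNU719 and -0.93 in AGS on the log2 scale, a fall in each. Its difference was 0.64 (SE 0.041, adjusted p = 8.34e-05).

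**Figure D3:**
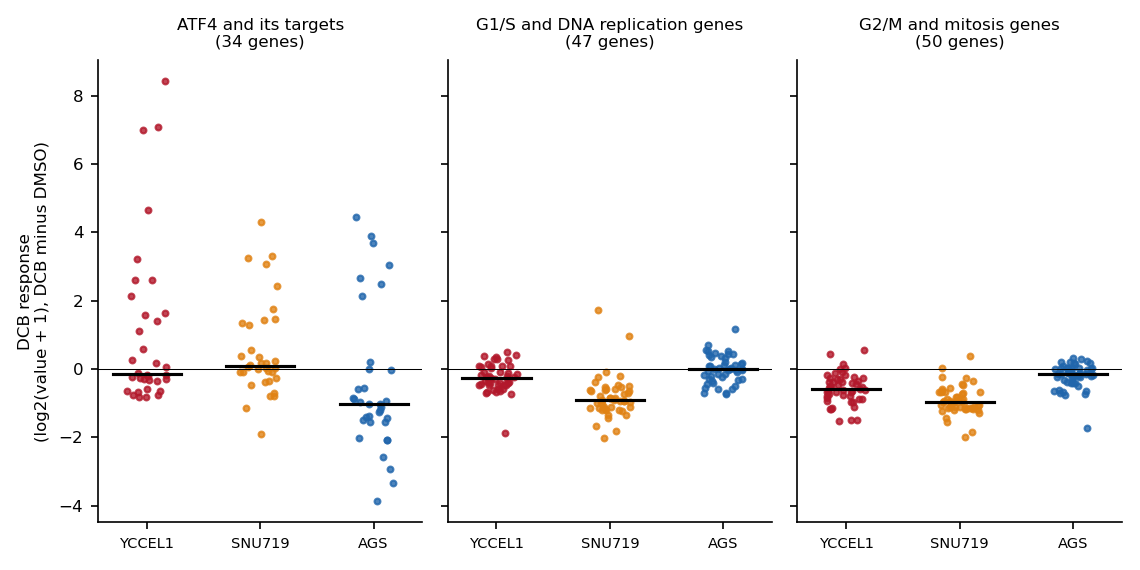
DCB response (DCB minus DMSO, log2(value + 1)) of each gene of 3 lists in YCCEL1, SNU719 and AGS, with 1 point per gene and a bar at the median. The genes of ATF4 and its targets have their lowest median in AGS, and the cell cycle lists have their lowest medians in SNU719 and those nearest to 0 in AGS.

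Proliferation genes fell with DCB most often in SNU719. Of 47 genes of G1/S and DNA replication, 23 had a smaller (more negative) response in the EBV+ lines and 1 a larger one, with a median difference of -0.53. Of 50 genes of G2/M and mitosis the numbers were 22 and 0, with a median of -0.56. The shares with a smaller response were 48.9% and 44%, against 9.15% of all genes and 33.3% of 15 reference genes that every cell expresses. The median difference of those 15 was -0.08, and falls among them numbered 9 in YCCEL1, 8 in SNU719 and 4 in AGS. Median responses in YCCEL1, SNU719 and AGS were -0.25, -0.92 and -0.01 for G1/S and -0.57, -0.97 and -0.14 for G2/M. For the reference genes they were -0.31, -0.36 and -0.04. In SNU719, 37 of the 47 and 42 of the 50 fell, in YCCEL1 10 and 27, and in AGS 5 and 8. Over all genes, 7.66% fell in SNU719, 7.39% in YCCEL1 and 9.25% in AGS. In both EBV+ lines separately, 8 of the 47 and 10 of the 50 were smaller than in AGS.

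CDC6, which loads the replicative helicase, had 426.1 and 407.7 with DCB against 633.4 and 737.2 with DMSO in YCCEL1, 197.2 and 194.3 against 411.4 and 377.4 in SNU719, and 766.6 and 739.7 against 543.0 and 512.9 in AGS, a difference of -1.37 (SE 0.10, adjusted p = 0.000142). It fell in both EBV+ lines and rose in AGS. CDK1, the mitotic kinase, had 394.4 and 390.9 with DCB against 541.0 and 541.1 with DMSO in YCCEL1, 238.3 and 232.8 against 551.6 and 531.8 in SNU719, and 1205 and 1275 against 1247 and 1201 in AGS, a difference of -0.85 (SE 0.059, adjusted p = 0.000110). CDK1 was higher in AGS than in either EBV+ line in both treatments and did not pass the test there. The thymidylate synthase gene TYMS differed by -0.75 (SE 0.062, adjusted p = 0.000230), the clamp loader subunit RFC3 by -1.01 (SE 0.095, adjusted p = 0.000439) and the spindle factor TPX2 by -0.55 (SE 0.038, adjusted p = 0.000110). The G1/S and G2/M counts of smaller responses were lower in most fits that left out 1 library, of AGS or of an EBV+ line. The lowest came without an AGS library. Each such fit leaves 1 library in a group, so a dependence on a particular library cannot be read from it. Among 25 genes of decitabine uptake and metabolism, a list that shares TYMS, 7 had a smaller response and 1 a larger one. The shares were 28% and 4%, against 9.15% and 7.81% of all genes. Set against AGS in both EBV+ lines separately, 3 of the 25 were smaller and 1 larger. Within that list the nucleoside diphosphate kinase NME1 rose in AGS (1376 and 1255 with DCB, 665.2 and 639.8 with DMSO) and differed by -0.93 (SE 0.059, adjusted p = 7.94e-05). Of 23 DNA methylation genes, 4 had a smaller response (17.4%), and 1 a larger one (4.35%). UHRF1, the partner of DNMT1 at replicated DNA, was among the 4, with a difference of -1.07 (SE 0.13, adjusted p = 0.00127).

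Cancer-testis antigens are germline proteins whose promoters are methylated in most somatic cells. Of 60 tested, 30 had a smaller response in the EBV+ lines and 3 a larger one (50% and 5%, against 9.15% and 7.81% of all genes), with a median difference of -1.92. At least 1 group was listed at 0 for 52 of the 60, so this median depends on the pseudocount, and over the other 8 it was -0.47. In both EBV+ lines separately 12 of the 60 were smaller than in AGS, and the median response was 2.71 in YCCEL1, 1.08 in SNU719 and 4.603 in AGS. Rises passed the test for 36 members in YCCEL1, 24 in SNU719 and 49 in AGS, against 14.2%, 13.5% and 18.2% of all genes, and 2 fell in SNU719.

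Several of these antigens were already on in untreated EBV+ cells and off in AGS. MAGEA6 had 365.9 and 362.1 with DCB against 339.8 and 422.1 with DMSO in YCCEL1, 602.5 and 611.5 against 639.4 and 629.0 in SNU719, and 63.1 and 83.4 against 0 in both libraries in AGS (adjusted p = 2.66e-06). MAGEA12 had 92.9 and 95.1 with DCB against 64.0 and 42.3 with DMSO in YCCEL1, 287.3 and 278.8 against 261.7 and 283.8 in SNU719, and 61.3 and 48.5 against 0 in both libraries in AGS (adjusted p = 2.41e-05). Neither changed by more than 1 log2 unit in an EBV+ line, and both appeared in AGS with DCB. SSX2 had 51.5 and 45.9 with DCB against 0 in both libraries with DMSO in YCCEL1, 152.8 and 153.4 against 428.4 and 322.0 in SNU719, and 93.5 and 105.9 against 0 in both libraries in AGS (adjusted p = 5.48e-05), so it appeared in YCCEL1 and AGS and fell in SNU719. MAGEA and SSX genes have near-identical copies, and the values of single members are uncertain.

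The cancer-testis pattern was also one of chromosome X. Of 954 tested genes on X, 92 were called smaller in the EBV+ lines, 9.64% against 2.86% over all chromosomes, and 23 larger (2.41% against 2.21%). On the autosomes the share called smaller ran from 0.573% on chromosome 21 to 3.8% on chromosome 19. Of the 92 genes on X, 24 belong to the cancer-testis list, 92 rose in AGS, and 74 were listed at 0 in both AGS DMSO libraries. Among all 782 genes with a smaller response, 97.2% rose in AGS and 52.9% were at 0 in both AGS DMSO libraries. The rise in AGS was thus not particular to X.

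**Figure D4:**
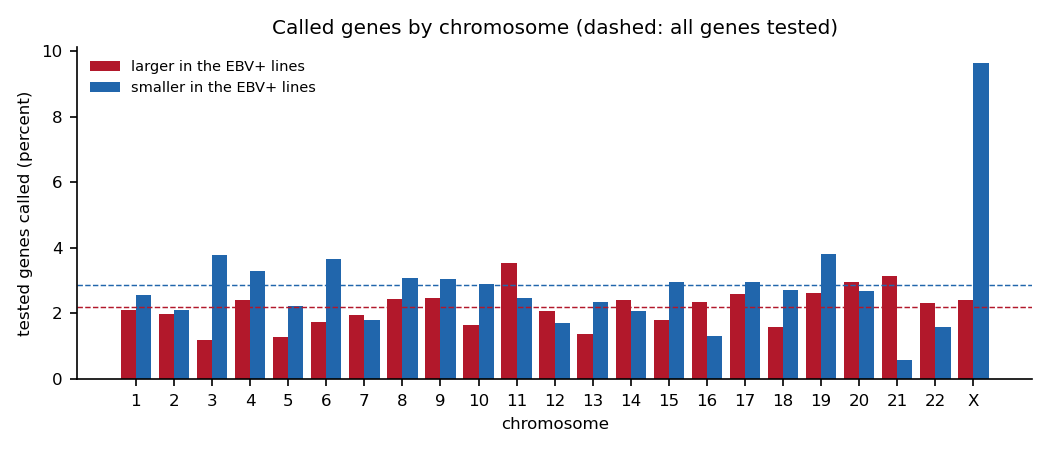
Percent of tested genes called on each autosome and on chromosome X, with red bars for a larger and blue bars for a smaller DCB response in the EBV+ lines, and dashed lines at the shares over all genes (2.21% and 2.86%). Chromosome X stands out with 9.64% of its genes smaller, against at most 3.8% on an autosome.

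Of 53 genes of meiosis and the piRNA pathway, 8 had a smaller and 2 a larger response (15.1% and 3.77%, against 9.15% and 7.81% of all genes). Of 58 cleavage-stage genes of the DUX4 type the numbers were 4 and 1 (6.9% and 1.72%), both below the shares over all genes. The cleavage-stage genes rose widely in each line, 50 in YCCEL1, 43 in SNU719 and 49 in AGS. Over all genes, 14.2%, 13.5% and 18.2% rose in these lines. DDX4, the germ cell RNA helicase, had 6.33 and 3.14 with DCB against 0 in both libraries with DMSO in YCCEL1, 184.0 and 207.2 against 295.1 and 362.1 in SNU719, and 30.9 and 59.8 against 0 in both libraries in AGS (adjusted p = 0.000731). DDX4 was on in untreated SNU719, where its change did not pass the test (adjusted p = 0.250). TDRKH, a piRNA biogenesis protein, had 122.1 and 113.3 with DCB against 59.4 and 66.6 with DMSO in YCCEL1, 156.9 and 118.2 against 52.1 and 61.3 in SNU719, and 45.8 and 41.004 against 0 in both libraries in AGS (adjusted p = 4.05e-05), and DUX4, the cleavage-stage activator and 1 of many near-identical repeat copies, had 1.30 and 6.09 with DCB against 0 in both libraries with DMSO in YCCEL1, 49.2 and 19.6 against 0 in both libraries in SNU719, and 129.1 and 144.1 against 0 in both libraries in AGS (adjusted p = 0.0131).

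Of 58 T-box and other developmental transcription factors, 14 had a smaller and 6 a larger response (24.1% and 10.3%, against 9.15% and 7.81% of all genes). The median difference was -0.52 over all of them and 0.30 over the 16 with no group at 0, so its sign turned where no group was at 0. TBX3, a T-box repressor, had the smallest adjusted p of them, 4.56e-08, with 1212 and 1136 with DCB against 954.9 and 951.1 with DMSO in YCCEL1, 677.6 and 614.4 against 765.1 and 714.3 in SNU719, and 321.7 and 354.6 against 0 in both libraries in AGS. Both EBV+ lines expressed TBX3 with or without DCB, and AGS had it only with DCB. TFAP2C had 74.1 and 70.0 and NKX2-1 26.3 and 27.5 with DCB in AGS and were at 0 in AGS DMSO, with at most 3.01 in any EBV+ library (adjusted p = 1.90e-05 and 0.000115). Of 38 HOX genes 6 were larger and 3 smaller (15.8% and 7.89% of those tested, against 7.81% and 9.15% of all genes), with a median difference of 0.01. HOXB9 had 15.5 and 26.7 with DCB against 0 and 0.993 with DMSO in YCCEL1, 657.9 and 637.9 against 864.4 and 896.1 in SNU719, and 352.4 and 362.9 against 561.0 and 536.1 in AGS, a difference of 2.35 (SE 0.40, adjusted p = 0.00681). Of the responses behind it, that of YCCEL1 alone passed the test (3.92, against -0.44 in SNU719 and -0.61 in AGS, adjusted p = 0.227 in AGS).

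Gut lineage genes passed the test in both directions. Of 45 intestinal differentiation genes, 12 were larger (26.7%, against 7.81% of all genes) and 2 smaller (4.44%, against 9.15%), with a median difference of 0.51. Of 34 gastric mucosa genes, 11 were larger (32.4%) and 7 smaller (20.6%), with a median of 0.58. Set against AGS in both EBV+ lines separately, 4 of the intestinal genes were larger and 2 smaller, and of the gastric genes 4 were larger and 5 smaller, so the balance of the gastric list turned. For scale, 4 of 15 reference genes that every cell expresses were larger (26.7%) and 5 smaller (33.3%). CEACAM5, the carcinoembryonic antigen, had 341.3 and 320.3 with DCB against 115.0 and 95.2 with DMSO in YCCEL1, 1593 and 1715 against 20.3 and 25.1 in SNU719, and 313.3 and 347.5 against 289.6 and 449.3 in AGS, a difference of 4.02 (SE 0.25, adjusted p = 7.54e-05). CEACAM6 had 968.2 and 895.0 with DCB against 163.4 and 171.0 with DMSO in YCCEL1, 11804 and 11928 against 1854 and 1764 in SNU719, and 1894 and 1871 against 817.4 and 808.4 in AGS, a difference of 1.38 (SE 0.06, adjusted p = 1.44e-05). CEACAM5 did not change in AGS by the test, and CEACAM6 rose in every line, by a log2 of 2.47 in YCCEL1, 2.71 in SNU719 and 1.21 in AGS.

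TFF1, the trefoil peptide of gastric surface mucus, had 46.4 and 49.5 with DCB against 0 in both libraries with DMSO in YCCEL1, 516.7 and 472.7 against 9.53 and 6.73 in SNU719, and 33.6 and 45.2 against 50.8 and 52.6 in AGS (adjusted p = 2.17e-05). It appeared or rose in the EBV+ lines and did not pass the test in AGS. PGC, the pepsinogen C of chief cells, had 56.5 and 64.5 with DCB against 0.702 and 0 with DMSO in YCCEL1, 7.25 and 2.9996 against 1.69 and 0.951 in SNU719, and 70.2 and 52.1 against 222.8 and 216.8 in AGS, a difference of 5.29 (SE 0.53, adjusted p = 0.000571), which rested on YCCEL1 and on a fall in AGS. LGALS4, a gut galectin, had 839.4 and 1000.4 with DCB against 172.0 and 229.3 with DMSO in YCCEL1, 4668 and 4818 against 4262 and 4279.8 in SNU719, and 195.5 and 211.2 against 386.8 and 513.6 in AGS, a difference of 2.31 (SE 0.21, adjusted p = 0.000352). Genes with a smaller response included VIL1, the brush border villin, with 635.0 and 664.4 with DCB against 661.9 and 718.0 with DMSO in YCCEL1, 1872 and 1948 against 2462 and 2520.1 in SNU719, and 3687 and 3519.7 against 2269 and 2241 in AGS and a difference of -0.91 (SE 0.062, adjusted p = 0.000103), and MUC13, given above. In a fit of all 20 libraries the VIL1 call was lost (adjusted p = 0.0757) and the intestinal genes with a larger response numbered 7.

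Secreted proteases and their inhibitors included the kallikrein KLK6, which rose by a log2 of 7.11 in YCCEL1 and 7.38 in SNU719. KLK6 had 928.2 and 875.5 with DCB against 4.51 and 6.71 with DMSO in YCCEL1, 567.5 and 569.2 against 1.19 and 4.33 in SNU719, and 1452 and 1382 against 821.5 and 809.4 in AGS, a difference of 6.45 (SE 0.44, adjusted p = 0.000103). Its AGS response did not pass the test, and AGS kept the highest values. Of 22 kallikreins and clade B serpins, 5 had a larger and 2 a smaller response (22.7% and 9.09%), with a median difference of 1.05. The shares were 7.81% and 9.15% over all genes, and 26.7% and 33.3% over the 15 reference genes. SERPINB1, an inhibitor of neutrophil proteases, rose in both EBV+ lines and fell in AGS (1963 and 1909 with DCB, 4827 and 4461 with DMSO), a difference of 1.74 (SE 0.11, adjusted p = 7.07e-05). The counts of simple epithelial keratins ran against this. Of 7 tested, 5 had a smaller and 1 a larger response (71.4% and 14.3%, against 9.15% and 7.81% of all genes). Set against AGS in both EBV+ lines separately, 3 of the 7 were smaller and 0 larger. Their median response was 0.175 in YCCEL1, 1.64 in SNU719 and 0.97 in AGS, so that of SNU719 was above that of AGS. KRT18 had 15407 and 15564 with DCB against 17169 and 18027 with DMSO in YCCEL1, 23601 and 23463 against 22725 and 22487 in SNU719, and 11893 and 11673 against 7978 and 8093 in AGS, a difference of -0.61 (SE 0.033, adjusted p = 3.65e-05), and KRT8, its partner, differed by -0.81 (SE 0.068, adjusted p = 0.000257), both with a rise in AGS. Among 17 stratified keratins, 3 were larger and 5 smaller, and among 23 genes of the epidermal differentiation complex 3 and 4, on a background of 7.81% and 9.15%. KRT17 had 27.3 and 30.0 with DCB against 1.48 and 2.15 with DMSO in YCCEL1, 256.4 and 303.8 against 0 and 1.52 in SNU719, and 790.3 and 706.9 against 296.0 and 268.2 in AGS, a difference of 4.03 (SE 0.47, adjusted p = 0.00127), and S100A9, a calprotectin subunit, differed by 4.46 (SE 0.33, adjusted p = 0.000143).

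**Figure D5:**
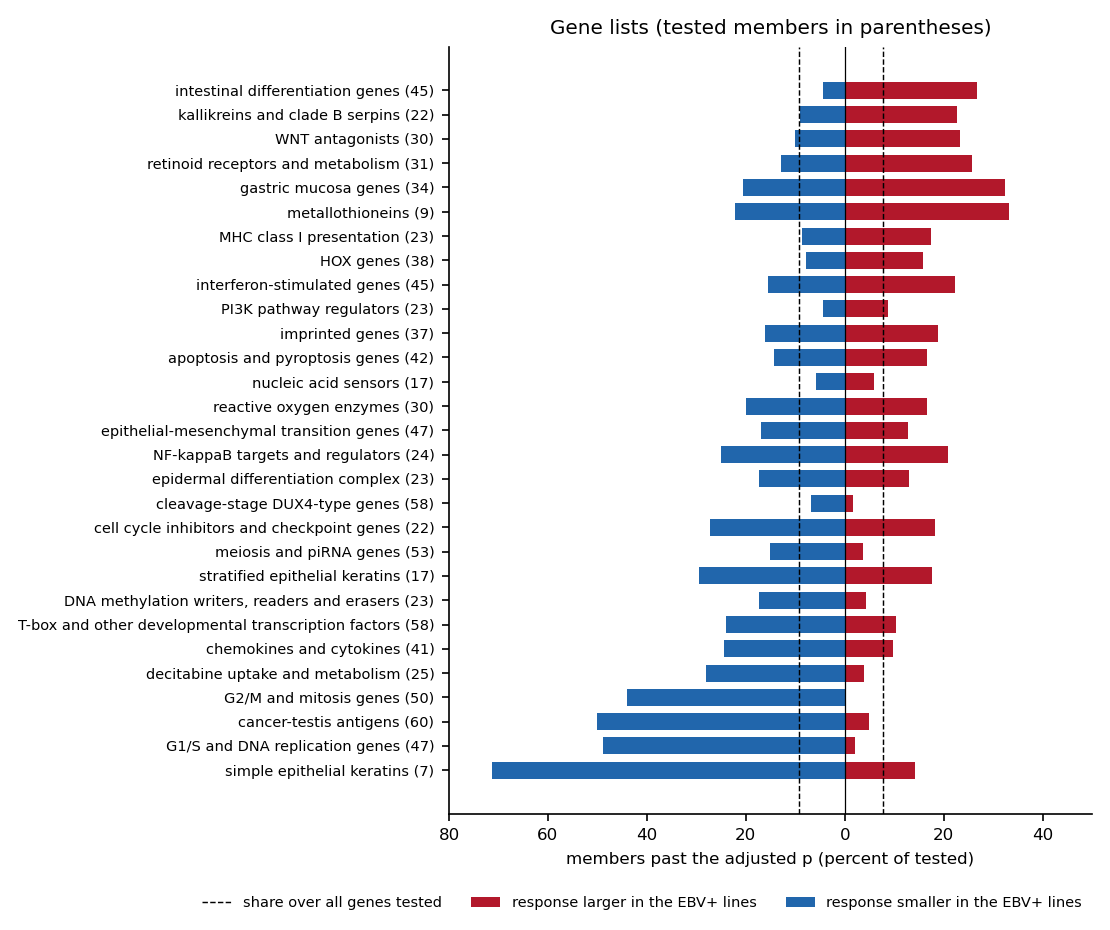
Percent of the tested members of the gene lists plotted that passed the adjusted p with a larger (red, right) or smaller (blue, left) DCB response in the EBV+ lines, with dashed lines at the shares over all genes tested (7.81% and 9.15%). Among the lists plotted, which leave out that of ATF4, simple keratins reach 71.4% on the left and metallothioneins 33.3% on the right, each from fewer than 10 genes. The 15 reference genes, not plotted, had 26.7% larger and 33.3% smaller responses.

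Genes that interferon induces in antiviral defence were split. Of 45, 10 had a larger response in the EBV+ lines (22.2%, against 7.81% of all genes) and 7 a smaller one (15.6%, against 9.15%), with a median difference of 0.39. Both shares were below those of the 15 reference genes (26.7% and 33.3%). BST2, the tetherin of enveloped viruses, had 524.1 and 548.3 with DCB against 355.2 and 356.2 with DMSO in YCCEL1, 1235 and 1224 against 851.7 and 847.0 in SNU719, and 357.4 and 353.4 against 575.6 and 644.2 in AGS, a difference of 1.34 (SE 0.072, adjusted p = 3.61e-05). ISG20, an exonuclease, had 60.6 and 69.5 with DCB against 14.3 and 20.5 with DMSO in YCCEL1, 186.7 and 235.5 against 5.80 and 5.41 in SNU719, and 162.4 and 139.4 against 100.5 and 102.8 in AGS, a difference of 2.87 (SE 0.26, adjusted p = 0.000339). BST2 rose in both EBV+ lines and fell in AGS, and ISG20 rose most in SNU719. OAS1, a sensor that makes 2′-5′ oligoadenylate, ran the other way, with 2332 and 2346 with DCB against 4319.5 and 4192 with DMSO in YCCEL1, 586.9 and 566.1 against 255.2 and 281.4 in SNU719, and 1136 and 1165 against 671.9 and 630.9 in AGS and a difference of -0.70 (SE 0.069, adjusted p = 0.000554). It fell in YCCEL1 and rose in SNU719 and AGS, and its paralogue OAS3 differed by -0.74 (SE 0.075, adjusted p = 0.000616). The OAS1 call was lost in a fit of all 20 libraries (adjusted p = 0.12).

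Of 17 nucleic acid sensors, 1 was larger and 1 smaller (5.88% each, against 7.81% and 9.15% of all genes). The larger one was the mitochondrial adaptor MAVS with a difference of 0.37 (SE 0.054, adjusted p = 0.00312). Of 23 genes of MHC class I presentation, 4 were larger and 2 smaller (17.4% and 8.7% of those tested, against 7.81% and 9.15% of all genes). The tapasin gene TAPBP was among the 4, with a difference of 0.68 (SE 0.08, adjusted p = 0.00129) and a log2 response of -0.54 in AGS. The peptide transporter gene TAP1 differed by -0.82 (SE 0.092, adjusted p = 0.000998), with a rise in AGS. CALR, calreticulin, had 5279 and 5384 with DCB against 7871 and 7986 with DMSO in YCCEL1, 6597 and 6762 against 6654 and 6789 in SNU719, and 14525 and 14086 against 8722 and 8569.9 in AGS, a difference of -1.02 (SE 0.034, adjusted p = 4.11e-06).

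Of 41 chemokines and cytokines, 4 had a larger and 10 a smaller response (9.76% and 24.4%, against 7.81% and 9.15% of all genes). CXCL8, the neutrophil chemokine IL-8, had 1219 and 1144 with DCB against 368.6 and 365.1 with DMSO in YCCEL1, 364.0 and 386.9 against 134.2 and 159.5 in SNU719, and 22.6 and 34.4 against 44.8 and 47.7 in AGS, a difference of 2.23 (SE 0.22, adjusted p = 0.000530), with rises in both EBV+ lines and a fall in AGS. The receptor antagonist gene IL1RN differed by -2.06 (SE 0.19, adjusted p = 0.000413), and TNFSF9, a T-cell costimulatory ligand, had 52.98 and 62.9 with DCB against 0 in both libraries with DMSO in YCCEL1, 505.2 and 536.1 against 236.2 and 301.9 in SNU719, and 176.6 and 181.9 against 0 in both libraries in AGS (adjusted p = 4.79e-05). Among 24 NF-kappaB targets, 5 were larger and 6 smaller (20.8% and 25%). Both shares were below those of the 15 reference genes (26.7% and 33.3%). The target TNFAIP2 differed by 2.94 (SE 0.33, adjusted p = 0.000955), and CD83 by -3.40 (SE 0.22, adjusted p = 9.31e-05).

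A further list held 13 genes of WNT, retinoid, oxidase and cell cycle function that the text of the study discusses for EBV+ cells, so it is not independent of these libraries. Of the 13, 3 had a larger and 2 a smaller response (23.1% and 15.4%, against 7.81% and 9.15% of all genes). NKD1, which binds Dishevelled and limits WNT signalling, had 54.1 and 214.7 with DCB against 0.745 and 0.419 with DMSO in YCCEL1, 547.8 and 570.0 against 11.8 and 0.812 in SNU719, and 2553 and 2259.7 against 2604 and 2621 in AGS, a difference of 6.61 (SE 1.09, adjusted p = 0.00571). It rose in both EBV+ lines and was highest in AGS, where it did not change by the test. RARA, the retinoic acid receptor alpha, had 233.3 and 243.0 with DCB against 188.7 and 164.3 with DMSO in YCCEL1, 235.5 and 244.2 against 233.3 and 209.5 in SNU719, and 171.0 and 186.6 against 227.9 and 251.7 in AGS, a difference of 0.70 (SE 0.12, adjusted p = 0.00789). It rose in YCCEL1, did not pass the test in SNU719 and fell in AGS. CDKN1C, the imprinted inhibitor p57, had 34.3 and 37.2 with DCB against 2.23 and 0 with DMSO in YCCEL1, 75.2 and 50.9 against 0.838 and 0.839 in SNU719, and 101.5 and 95.3 against 25.4 and 15.6 in AGS, a difference of 2.48 (SE 0.65, adjusted p = 0.0384), and rose in all 3 lines. Its call was lost in 10 of the 12 fits without 1 library (adjusted p 0.0555 to 0.129).

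The other 2 calls among them were smaller responses. DUOX2, a hydrogen peroxide-forming oxidase, had 5.99 and 4.31 with DCB against 0 and 3.59 with DMSO in YCCEL1, 7.19 and 20.007 against 3.84 and 2.61 in SNU719, and 394.9 and 340.9 against 11.7 and 8.34 in AGS, a difference of -3.50 (SE 0.89, adjusted p = 0.0341). RASSF1, a tumour suppressor of the Hippo pathway, had 224.2 and 220.1 with DCB against 244.7 and 261.9 with DMSO in YCCEL1, 108.1 and 117.7 against 95.9 and 96.0 in SNU719, and 191.2 and 191.6 against 120.9 and 144.4 in AGS, a difference of -0.51 (SE 0.12, adjusted p = 0.0284). Both rose in AGS. The DUOX2 call was lost in 9 of the 12 fits without 1 library (adjusted p 0.0565 to 0.11), and that of RASSF1 in 7 (0.0507 to 0.0749).

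The remaining 8 genes did not pass the test. DUSP1 differed by -0.31 (SE 0.15, adjusted p = 0.214), GPX1 by 0.01 (SE 0.047, adjusted p = 0.888), INPP4B by -0.45 (SE 0.28, adjusted p = 0.349), HOPX by 1.02 (SE 1.00, adjusted p = 0.567) and DUOX1 by -2.71 (SE 0.86, adjusted p = 0.0727). DUOX1 passed without SNU719 DCB replicate 2 (adjusted p = 0.0151). RARB, the retinoic acid receptor beta, was listed at 0 in all DMSO libraries and had 1.02 and 0 in YCCEL1, 1.77 and 1.72 in SNU719 and 2.51 and 18.4 in AGS with DCB (adjusted p = 0.156). Without AGS DCB replicate 1 the RARB adjusted p was 0.00517, again with AGS higher. SFRP1 was at most 1.77 in every library (adjusted p = 0.123, and 0.00854 without SNU719 DCB replicate 1), and NOX5 had 2.95 and 26.2 in YCCEL1, 1.71 and 7.31 in SNU719 and 1.96 and 1.71 in AGS with DCB (adjusted p = 0.348).

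The pathways around these genes were taken as wider lists. Of 31 genes of retinoid receptors and metabolism, 8 had a larger response (25.8%, against 7.81% of all genes), with a median difference of 0.16. A smaller response was found for 4 (12.9%, against 9.15% of all genes). The 15 reference genes had 26.7% larger and 33.3% smaller responses. Only 3 of the 31 were larger, and 1 smaller, against AGS in both EBV+ lines separately. The larger count fell to 5 and the smaller to 3 with a replicate block. The larger count was also lower in each fit that left out 1 library, which leaves 1 library in a group. TGM2, a transglutaminase induced by retinoic acid, had 535.3 and 581.0 with DCB against 5.82 and 2.81 with DMSO in YCCEL1, 26.8 and 21.3 against 0.999 and 1.81 in SNU719, and 400.2 and 385.1 against 640.4 and 542.8 in AGS, a difference of 5.67 (SE 0.36, adjusted p = 7.94e-05). It rose in both EBV+ lines and its change in AGS did not pass the test. STRA6, the membrane receptor that takes up retinol, had 25.6 and 13.2 with DCB against 0 in both libraries with DMSO in YCCEL1, 24.4 and 25.9 against 0 in both libraries in SNU719, and 0.967 and 5.65 against 3.48 and 6.07 in AGS (adjusted p = 0.00279), and RDH10, which oxidises retinol, had a smaller response by -1.98 (SE 0.30, adjusted p = 0.00375).

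Of 30 WNT antagonists, 7 were larger and 3 smaller (23.3% and 10%). For each list of this paragraph the shares over all genes were 7.81% and 9.15%. Those over the 15 reference genes were 26.7% and 33.3%. NOTUM, which removes the lipid from WNT proteins, had 133.3 and 188.7 with DCB against 0 in both libraries with DMSO in YCCEL1, 619.2 and 534.5 against 239.2 and 255.9 in SNU719, and 125.2 and 145.7 against 155.9 and 115.7 in AGS (adjusted p = 6.05e-05). AXIN2, a WNT target and antagonist, had 4031 and 3885 with DCB against 3200.3 and 3263 with DMSO in YCCEL1, 1373 and 1513 against 1545 and 1523 in SNU719, and 2295 and 2365 against 3852 and 3959.9 in AGS, a difference of 0.85 (SE 0.06, adjusted p = 0.000119), with a fall in AGS. KREMEN1, a receptor for DKK proteins, differed by 0.84 (SE 0.09, adjusted p = 0.000813), and DKK4 by -2.80 (SE 0.25, adjusted p = 0.000352). Of 30 reactive oxygen genes, 5 were larger and 6 smaller (16.7% and 20%). The quinone reductase gene NQO1 had 1940.4 and 2007 with DCB against 1288 and 1290.2 with DMSO in YCCEL1, 1699 and 1685 against 2148 and 2238 in SNU719, and 1887 and 1768 against 3654 and 3937 in AGS, a difference of 1.17 (SE 0.06, adjusted p = 2.93e-05), and DUOXA2, the maturation factor of DUOX2, was seen in DCB-treated AGS (27.8 and 31.1) and at no more than 0.746 elsewhere (adjusted p = 0.000101). Among 22 cell cycle inhibitors and checkpoint genes, 4 were larger and 6 smaller (18.2% and 27.3%). CDKN2B, the inhibitor p15, had 48.5 and 42.9 with DCB against 0 in both libraries with DMSO in YCCEL1, 1004 and 959.2 against 200.7 and 221.0 in SNU719, and 385.5 and 448.4 against 372.3 and 433.9 in AGS (adjusted p = 1.04e-05), SFN, the 14-3-3 sigma protein, differed by -0.79 (SE 0.054, adjusted p = 0.000103) and the stress gene GADD45A by -0.83 (SE 0.062, adjusted p = 0.000152). CDKN1A, the p21 arrest gene, rose in all 3 lines, by a log2 of 0.91 in YCCEL1, 1.49 in SNU719 and 1.33 in AGS, and its difference of -0.13 (SE 0.087, adjusted p = 0.393) did not pass the test.

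Imprinted genes were split as well, 7 of 37 larger and 6 smaller (18.9% and 16.2%). H19, a noncoding RNA expressed from the maternal allele, had 55360.0 and 55059 with DCB against 524.4 and 680.5 with DMSO in YCCEL1, 630.2 and 708.3 against 4.57 and 13.9 in SNU719, and 4354 and 4125 against 10199 and 10500.0 in AGS, a difference of 7.65 (SE 0.47, adjusted p = 6.69e-05). It rose in both EBV+ lines and fell in AGS. KCNQ1, a potassium channel gene, fell in AGS (21.5 and 20.3 with DCB, 205.3 and 198.1 with DMSO), with a difference of 2.54 (SE 0.25, adjusted p = 0.000580), and PLAGL1, a growth-limiting zinc finger, rose in AGS (56.2 and 48.8 with DCB, 0.346 and 0 with DMSO; adjusted p = 0.00145). Of 42 apoptosis and pyroptosis genes, 7 were larger and 6 smaller (16.7% and 14.3%), among them the BH3-only gene BMF with 2.78 (SE 0.27, adjusted p = 0.000474) and the inflammasome adaptor PYCARD, listed at 0 in AGS DMSO (adjusted p = 0.000636). Of 47 genes of epithelial-mesenchymal transition, 6 were larger and 8 smaller (12.8% and 17%). Of 23 PI3K regulators the numbers were 2 and 1 (8.7% and 4.35%), and of 9 metallothioneins 3 and 2 (33.3% and 22.2%). Over all genes the shares were 7.81% and 9.15%, and over the 15 reference genes 26.7% and 33.3%.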

How the data were processed

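RNA-seq libraries of 3 gastric cancer lines, each given DCB or DMSO for 72 h, were compared (12 of 20 libraries, 2 per group). The authors deposited 1 table of normalized estimated counts for 60232 genes, used here as a signal on a linear scale. Per the submitters' processing notes, reads were aligned with STAR 2.5.2b and handled with featureCounts 1.5.1 and DESeq2 1.14.1. The notes name GRCh37, but of 60064 genes found in GENCODE v44 (GRCh38) 92.6% had identical start and end, so coordinates are given as GRCh38. The values are not whole reads, so no count model was used.

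Genes with a sum above 10 over the 20 libraries were kept (27350). log2(value + 1) was fitted with limma 3.58.1 in R 4.3.3 (lmFit, contrasts.fit, eBayes with trend, 6 groups of line and treatment), with Benjamini-Hochberg adjustment over all genes tested. A gene was called at an adjusted p below 0.05 and a log2 difference beyond 2, and lists were counted by adjusted p alone. Where both libraries of a group were listed at 0 no difference is given, since it depends on the pseudocount, and list medians include such genes. The procedure was tested on simulated data of 17410 genes, which left out genes with low mean values. There 28% of the simulated differences of 1 log2 unit passed the adjusted p, and 78% of those of 3 were called. Of the calls 4.82% were false. A gene that did not pass may thus still differ, and the lowest genes were not covered. Tables and figures were made with Python 3.11.15, pandas 2.3.3 and matplotlib 3.10.9. Every value column belonged to a sample of the series.

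Named genes were the list discussed by the study, the 8 in each direction with the smallest adjusted p among genes above 0 in all 12 libraries and with no overlap of library responses, the 6 highest listed at 0 on 1 side, and up to 4 per list by adjusted p, without Y-linked genes. ATF4, ATF3, ASNS, SLC7A11 and CDKN1A were named after their values were seen. A few results are not reported here. All members and lists were chosen with earlier results of these data known. Alternatives changed the pseudocount, filter, scaling, libraries fitted, variance model, fold limit and replicate block, and left out each library. Replicate numbers were not treated as pairs, since same-numbered libraries of DCB and DMSO did not deviate together over all genes. That check cannot exclude pairing, and the counts with a replicate block are given below.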

Additional observations from a re-analysis of the deposited data

Results flagged for a closer look

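The DCB response differed between the EBV+ lines and AGS, by a test of the difference itself, for 605 genes with a larger and 782 with a smaller response in the EBV+ lines (limma). The EBV+ lines also differed from each other within these sets: the responses of YCCEL1 and SNU719 differed past the same limits in 152 of the 605 genes and 95 of the 782, so in those genes the mean of both lines stands for unequal responses. Among all 27350 genes the YCCEL1 response was larger than that of SNU719 in 2.06% and smaller in 1.14%.

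Of the 8 leading genes with a larger response, 3 differed in this way. YCCEL1 minus SNU719 was -3.37 log2 units for PRSS2, -3.59 for CST1 and -2.63 for PRSS1. All 3 rose in both EBV+ lines, and in SNU719 their DMSO values were the lowest of the 3 lines. These values are given without an explanation.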

How the results depend on the processing

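Of 186 genes examined by name, 171 passed the adjusted p. Of these, 146 kept it in every alternative that tested them, with none reversed. The filter on a sum above 100 removed some of the 186, which were not tested under it. The cause of the changes below was not tested unless the setting itself removes genes or limits. Counts are larger then smaller responses for EBV+ minus AGS (605 and 782), YCCEL1 minus AGS (788 and 690) and SNU719 minus AGS (561 and 853), then rises and falls for YCCEL1 (1985 and 43), SNU719 (1597 and 59) and AGS (2309 and 157). With a pseudocount of 5 they were 275 and 388, 383 and 373, 301 and 474, 785 and 11, 611 and 27, and 1041 and 84. With a pseudocount of 0.5 the YCCEL1 falls were 76. With a log2 limit of 1 they were 1232 and 1305, 1386 and 1211, 1010 and 1349, 3037 and 232, 2612 and 437, and 3504 and 790. With no log2 limit they were 2135 and 2502, 2060 and 2269, 1750 and 2155, 3885 and 2022, 3705 and 2096, and 4989 and 2530. With a sum above 100 the smaller responses were 485, 410 and 545, the rises 1270, 967 and 1245, and the YCCEL1 and SNU719 falls 24 and 31. Called against AGS in both EBV+ lines separately were 229 and 397 genes. In genes with no group at 0, chosen after seeing the data, the counts were 292 and 262, 356 and 238, and 269 and 266.

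With a replicate block the counts were 396 and 538, 501 and 434, and 348 and 492, with 14 G1/S and 13 G2/M genes. Deviations from the group means of same-numbered libraries correlated by 0.001, 0 and 0.015. This was taken over all tested genes, of which 33.1% had at least 1 group at 0, so it cannot exclude that same-numbered libraries were handled together. With all 20 libraries the intestinal genes with a larger response were 7, against 12. Leaving out each library gave 517 to 607 larger and 674 to 758 smaller calls, 35 to 66 YCCEL1 falls (66 without YCCEL1 DCB replicate 1), 15 to 22 G1/S and 13 to 23 G2/M genes with a smaller response. Genes near 0 carry the least precise differences, and at least 1 group was at 0 in 313 of the 605 and 520 of the 782 genes.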

Other observations

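Zinc finger genes of chromosome 19 are a clustered family of KRAB repressors. Of 277 tested, 17 (6.14%) had a smaller response in the EBV+ lines past the log2 limit, against 2.86% of all genes, and 4 a larger one. ZNF419, described above, was among the 17.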
